A study of Homo sapiens with 12 samples.

Results

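The starts of 5 heat shock protein genes, HSPA1A, HSPA1B, DNAJB1, HSPH1 and HSP90AB1, were examined for acetylation and dimethylation of lysine 9 of histone H3 (H3K9ac and H3K9me2) in MDA-MB-231, an established cell line from a triple negative breast adenocarcinoma. Each gene was represented by 1 window of 5 kb either side of its start on hg19. The windows were placed by position and not by any measured value, but the genes were chosen with earlier results of these data known. The gene windows are 5 of 21106 windows in all, the others being bins of 10 kb that meet a reproducible H3K9ac region of either condition. Many bins thus entered through 1 condition alone, and requiring regions of both conditions leaves 12195 windows. Treated cells received 500 µM of the slow nitric oxide donor DETA/NO for 24 h, and the other cells were untreated. The labels give every sample the same text on culture, in which serum was withheld overnight before treatment. Each condition had 2 biological replicates per mark. The series also holds 4 inputs, which were not analysed here. All libraries come from 1 cell line, and its identity cannot be checked from interval lists.

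Heat shock proteins are chaperones that hold, refold or hand on unfolded proteins. Their genes are the classical targets of heat shock factor HSF1, which binds arrays of inverted GAA repeats called heat shock elements. Several of these genes are known for promoters that stay open before stress, with a paused polymerase that is released on induction. HSPA1A and HSPA1B encode nearly the same stress-inducible Hsp70 chaperone of the cytosol. DNAJB1 encodes an Hsp40 co-chaperone that delivers clients to Hsp70 and stimulates its ATPase. HSPH1 encodes a large Hsp70 relative that acts as a nucleotide exchange factor for Hsp70. HSP90AB1 encodes the constitutive cytosolic Hsp90. H3K9ac is found at active promoters, and H3K9me2 covers broad silent domains.

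The promoter sequences below are shown because H3K9ac was called at or beside all 5 starts. They also show which of these stretches hold exact letter matches to elements that HSF1 is known to bind. They come from RefSeq on GRCh38.p14 and run from 250 bases before to 50 bases after a listed start, 5′ to 3′ along the gene. Capitals mark heat shock elements, searched on both strands as the dimeric GAANNTTC and TTCNNGAA, and as the trimeric element, which is TTCNNGAA followed by NNTTC and so contains both dimeric ones. These sequences stand on another build than the windows and were matched by gene symbol, so positions in them are counted from the RefSeq start and not from the hg19 start.
HSPA1A, chr6:31815293-31815592, plus strand: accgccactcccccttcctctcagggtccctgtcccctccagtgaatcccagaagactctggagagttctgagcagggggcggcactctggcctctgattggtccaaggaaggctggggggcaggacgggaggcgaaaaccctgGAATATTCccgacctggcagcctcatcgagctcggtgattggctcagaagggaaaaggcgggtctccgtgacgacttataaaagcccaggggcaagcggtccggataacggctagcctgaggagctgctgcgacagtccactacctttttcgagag
HSPA1B, chr6:31827488-31827787, plus strand: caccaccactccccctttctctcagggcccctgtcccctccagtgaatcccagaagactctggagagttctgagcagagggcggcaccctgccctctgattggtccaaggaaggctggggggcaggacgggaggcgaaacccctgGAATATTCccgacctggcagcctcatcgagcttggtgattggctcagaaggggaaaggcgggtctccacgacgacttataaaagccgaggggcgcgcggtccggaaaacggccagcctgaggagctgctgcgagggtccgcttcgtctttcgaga
DNAJB1, chr19:14518348-14518647, minus strand: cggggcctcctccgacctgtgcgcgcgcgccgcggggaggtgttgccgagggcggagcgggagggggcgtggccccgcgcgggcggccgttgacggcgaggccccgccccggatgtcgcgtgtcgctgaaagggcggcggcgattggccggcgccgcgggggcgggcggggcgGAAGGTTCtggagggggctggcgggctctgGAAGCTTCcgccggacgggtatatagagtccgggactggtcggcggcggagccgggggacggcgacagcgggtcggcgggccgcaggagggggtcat
HSPH1, chr13:31162339-31162638, minus strand: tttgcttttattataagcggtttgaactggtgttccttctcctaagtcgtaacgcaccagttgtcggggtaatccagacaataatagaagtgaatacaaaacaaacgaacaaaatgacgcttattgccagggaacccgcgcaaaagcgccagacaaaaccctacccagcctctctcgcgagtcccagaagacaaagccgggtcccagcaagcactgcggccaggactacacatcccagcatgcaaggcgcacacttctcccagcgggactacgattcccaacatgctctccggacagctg
HSP90AB1, chr6:44246851-44247150, plus strand: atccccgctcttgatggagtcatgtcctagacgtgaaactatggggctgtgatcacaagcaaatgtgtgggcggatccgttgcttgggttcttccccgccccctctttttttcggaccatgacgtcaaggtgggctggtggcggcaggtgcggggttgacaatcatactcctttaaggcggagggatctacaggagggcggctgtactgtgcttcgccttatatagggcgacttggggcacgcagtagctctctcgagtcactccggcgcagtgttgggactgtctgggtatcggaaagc
HSP90AB1, downstream start, chr6:44247693-44247992, plus strand: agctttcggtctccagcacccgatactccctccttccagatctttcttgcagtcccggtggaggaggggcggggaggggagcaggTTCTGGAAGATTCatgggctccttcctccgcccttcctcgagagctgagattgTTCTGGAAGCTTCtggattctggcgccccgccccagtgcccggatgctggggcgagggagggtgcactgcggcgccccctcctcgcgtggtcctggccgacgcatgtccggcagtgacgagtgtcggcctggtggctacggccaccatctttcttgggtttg

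RefSeq lists 3 starts each for DNAJB1 and HSP90AB1. For HSP90AB1 the second start is shown as that of the window, because it lies 12431558 bases from the HSPA1A start in the promoter table and the starts of both windows are equally far apart on hg19. The third HSP90AB1 start is shown as well because it carries the matches found for this gene. The third DNAJB1 start, which has a GAANNTTC match at 1 to 8, is not shown. The DNAJB1 start shown was picked from general knowledge of the gene, since no table ties it to hg19.

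HSPA1A and HSPA1B shared 277 of 299 aligned promoter bases (92.6%), with 1 GAANNTTC match each, at -106 to -99 and at -105 to -98. Both also hold a TATAAA box, at -30 to -25 in HSPA1A and at -29 to -24 in HSPA1B, and 2 CCAAT boxes on the reverse strand. DNAJB1 holds 2 GAANNTTC matches, at -77 to -70 and -47 to -40, in a stretch with 7 matches to the GC box GGGCGG. The HSP90AB1 start of the window has no heat shock element in these letters, and the downstream start has 2 trimeric ones at -165 to -153 and -112 to -100. HSPH1 has none of the searched elements within these letters. Over all 35116 RefSeq promoter windows, 6.77% hold GAANNTTC, 7.74% hold TTCNNGAA, 0.490% hold the trimeric element, 11.5% hold TATAAA, 34.6% hold CCAAT and 45.0% hold GGGCGG. These are matches of letters only, and imperfect elements or ones outside these stretches were not searched.

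The deposited data are intervals, not reads, so the measure used is the number of bases that called H3K9ac peaks cover in a window, and the depth behind it is unknown. The 2 treated lists hold 79538 and 69151 H3K9ac peaks covering 52.1 and 37.8 Mb, against 120630 and 59724 peaks covering 48.3 and 22.8 Mb in untreated cells. A longer covered stretch can come from more cells with the mark or from more of it per cell. It can also come from the depth, enrichment or peak calling behind a list, and these cannot be told apart. The narrowest H3K9ac peak was 99 and 114 bp in the treated lists, against 238 and 175 bp in the untreated lists. The part of such differences between lists in the covered length was not tested. With 2 libraries against 2, the exact two-sided permutation test has a smallest possible p of 0.333, so no single window could pass it.

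In every window H3K9ac peaks covered more bases in each treated library than in either untreated one. Summed over the 5 windows, peaks covered 25270 and 18509 bp in DETA/NO cells, against 12084 and 10101 bp in untreated cells, a ratio of means of 1.97. Of these bases, 6290 were called in both treated and in neither untreated library, and 0 in both untreated and in neither treated one. The direction was common: 75.7% of the 21106 windows had this order of libraries, and 3.10% had the reverse. The order in 5 of 5 windows is read against that share and shows nothing particular to these genes.

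**Figure D1:**
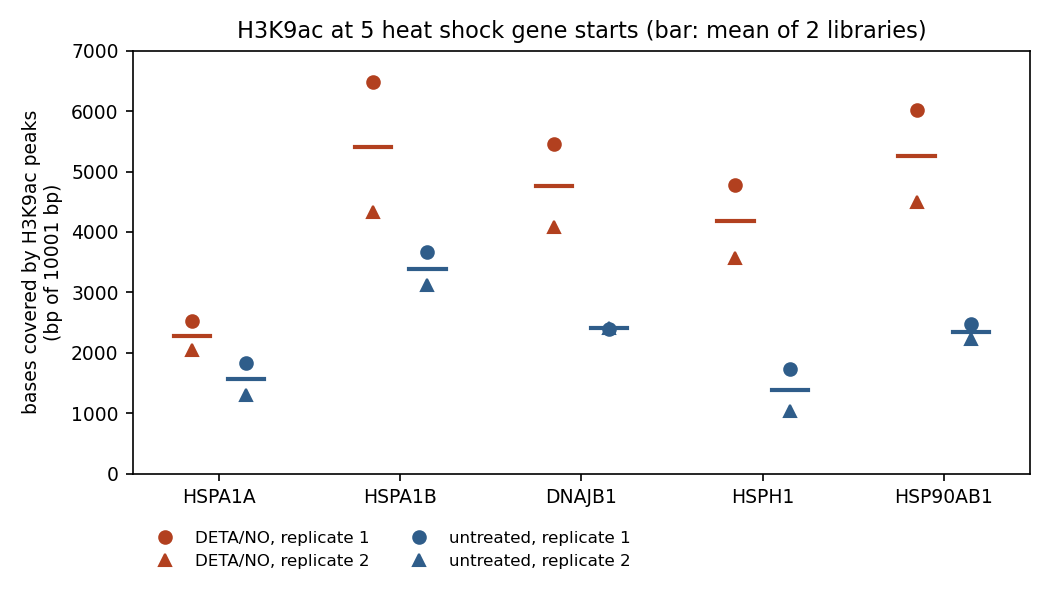
Bases covered by H3K9ac peaks (y axis, bp of the 10001 bp window) at each of the 5 gene starts (x axis), with DETA/NO left of untreated, circles for replicate 1, triangles for replicate 2 and bars for means of 2 libraries. HSPH1 shows the largest ratio of means, 3.02, and HSPA1A the smallest, 1.46.

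HSPA1A, the upstream Hsp70 copy on chromosome 6 (window 31778291 to 31788291, plus strand), had the smallest difference. Peaks covered 2527 and 2040 bp in DETA/NO cells, against 1824 and 1307 bp in untreated cells. The means were 2283.5 bp ± 344 and 1565.5 bp ± 366 (SD, n = 2 each), and the difference of 718 bp was larger than either SD (exact permutation p = 0.333). It was 474.5 bp without treated replicate 1 and 459.5 bp without untreated replicate 2. In all 4 libraries most of the mark lay upstream of the start, towards HSPA1L, the neighbouring testis-enriched Hsp70 gene. The 5 kb upstream of the start held 1992 and 1582 bp in DETA/NO cells, against 1540 and 1102 bp in untreated cells.

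Positions below are in bp from the hg19 start along the gene, negative upstream. The reproducible HSPA1A region reached from -2123 to 287 in DETA/NO cells, against -1800 to -197 in untreated cells, so of the 2 sets only the treated one crossed the start. The single libraries did not divide that way. Treated replicate 1 left the start uncalled, in a gap from -131 to 60, and untreated replicate 1 had a separate weak peak from -4 to 283, with an authors' score of 1.96, that untreated replicate 2 lacked. A second treated region, only 184 bp wide, lay from 2002 to 2185. Untreated replicate 2 also had a peak there, from 2091 to 2295, and untreated replicate 1 had none. Between 288 and 2001, a stretch of 1714 bp, no library of either condition had a called base.

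HSPA1B, the downstream Hsp70 copy (window 31790512 to 31800512, plus strand), had the highest mean covered length in both conditions, although HSP90AB1 was above it in treated replicate 2. Peaks covered 6485 and 4330 bp in DETA/NO cells, against 3662 and 3114 bp in untreated cells. With windows of 2 kb either side HSP90AB1 had the higher mean in both conditions, at 3521.5 bp in treated and 2332 bp in untreated cells, and HSPA1B had 2024.5 bp in treated and 1443.5 bp in untreated cells. The treated replicates were far apart, with means of 5407.5 bp ± 1524 in treated and 3388 bp ± 387 in untreated cells (SD, n = 2 each; exact permutation p = 0.333). The difference was 942 bp without treated replicate 1, and was 3097 bp without treated replicate 2.

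The region at the HSPA1B start was narrower in the treated set, and the regions on its flanks were wider. The small region at the start itself spanned -44 to 307 in the treated set, against -56 to 417 in the untreated set. It was 352 bp wide in treated and 474 bp wide in untreated cells, and 96.9% of the 11387 merged regions of both sets were wider in the treated set. In single libraries that peak was 347 and 346 bp wide in DETA/NO cells, against 474 and 257 bp in untreated cells, so the treated values lay between the untreated ones. Further into the window, 1 treated region of 2720 bp from 1834 to 4553 faced 2 untreated regions, 519 bp and 1344 bp wide. That stretch was 1 peak in treated replicate 1 only. Treated replicate 2 had a gap from 3658 to 3803, with a weak peak after it, at an authors' score of 3.27. Upstream, a treated region of 1950 bp faced an untreated one of 1096 bp.

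A further HSPA1B region, at the far upstream edge between both Hsp70 copies, had the highest-scoring peak of the 5 windows in both treated libraries; in both untreated libraries that was the HSP90AB1 peak at the start. It spanned -6507 to -3810 in treated and -6369 to -4532 in untreated cells, so it runs out of the window. In treated replicate 1 only 0.0314% of that library's peaks had a higher authors' score, and in treated replicate 2 it was 0.456%. In the untreated libraries 1.93% and 1.68% of peaks scored higher. Such ranks describe each list and are not compared between lists.

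HSPA1B repeated the uncalled stretch of HSPA1A. From 418 to 1772, over 1355 bp, no library had a called base, while peaks stood on either side in all 4. The genes are near-identical copies, and how reads that match both were treated is not given in the sources used here. Calls inside and near the gene bodies of HSPA1A and HSPA1B are therefore uncertain, and the part of read assignment in the gap was not tested. The other 3 genes together covered 14198.5 bp on average in DETA/NO cells, against 6139 bp in untreated cells, a ratio of 2.31.

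**Figure D2:**
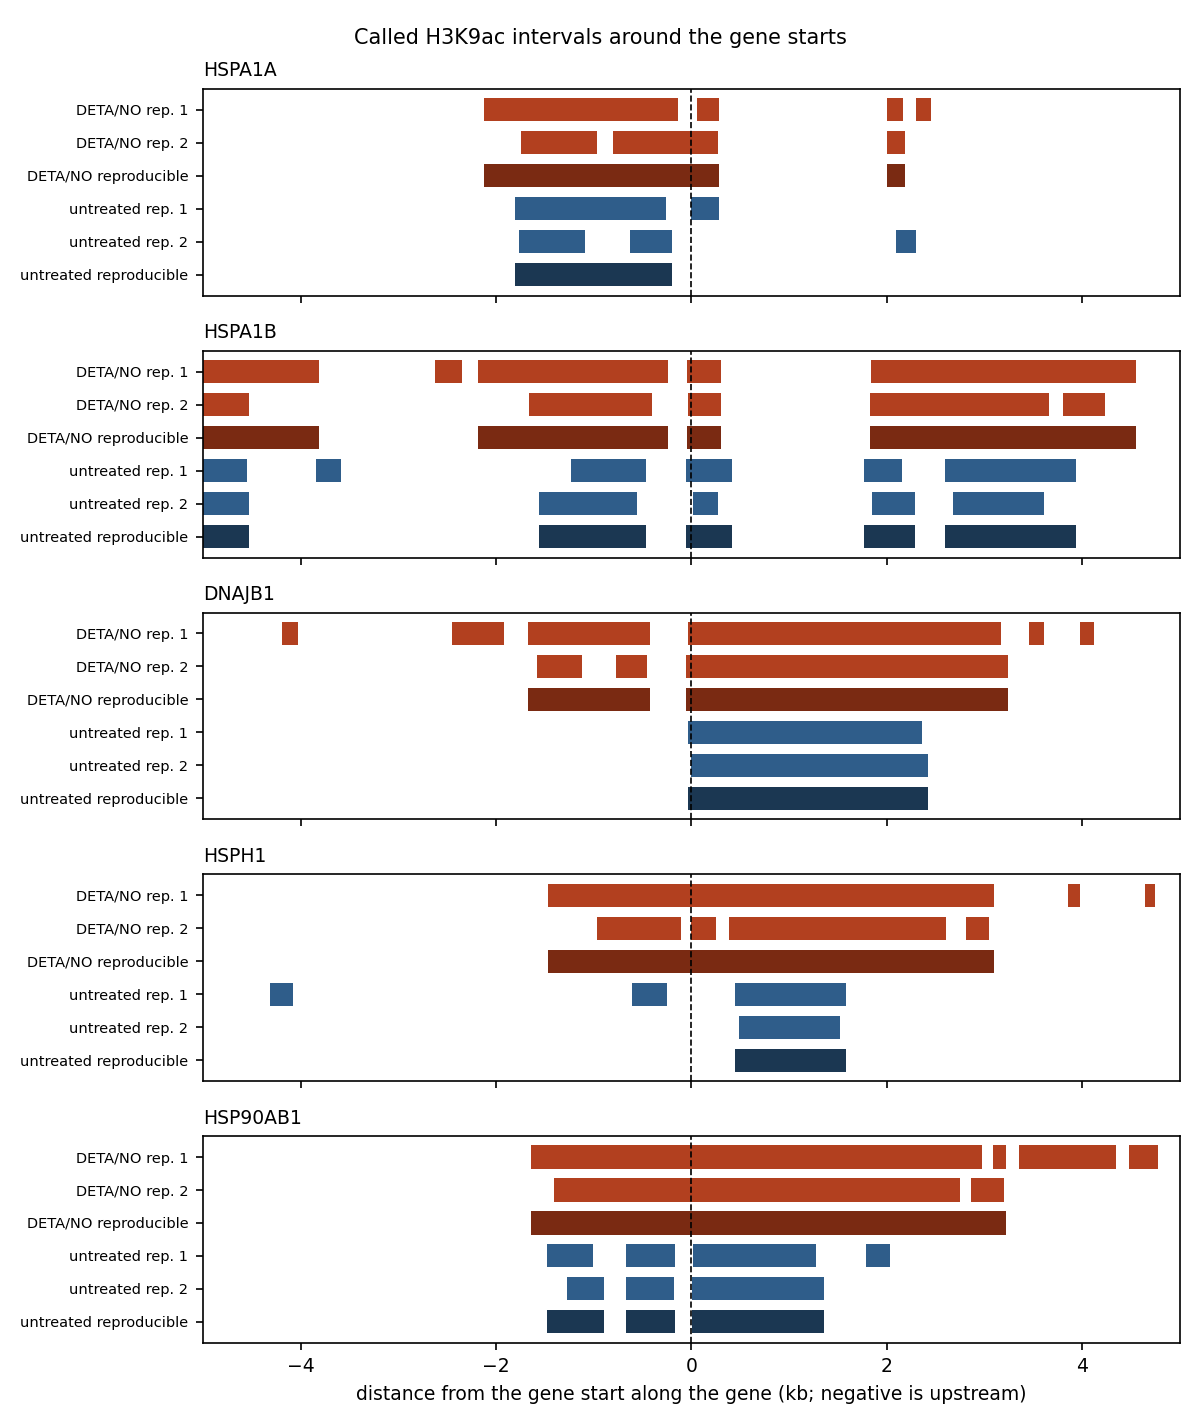
Called H3K9ac intervals by distance from the gene start along the gene (x axis, kb, negative upstream) for each gene, with single libraries and the authors' reproducible set of each condition as rows, DETA/NO above untreated, cut at the window edge. The uncalled stretches inside HSPA1A and HSPA1B, the upstream DNAJB1 region found only in treated rows and the gaps around the HSP90AB1 start in untreated rows are visible.

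DNAJB1, the Hsp40 co-chaperone on chromosome 19 (window 14624232 to 14634232, minus strand), had the best matched untreated libraries. Peaks covered 5452 and 4075 bp in DETA/NO cells, against 2400 and 2416 bp in untreated cells. The means were 4763.5 bp ± 974 and 2408 bp ± 11.3 (SD, n = 2 each), a ratio of 1.98 (exact permutation p = 0.333). In untreated cells all of it was 1 peak per library, which began near the start and ran into the gene, from -36 to 2363 in replicate 1 and from 2 to 2417 in replicate 2. In DETA/NO cells that peak reached to 3169 and 3245, and its upstream edge stayed at -33 and -53.

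The treated DNAJB1 window also had H3K9ac upstream of the start, where untreated cells had almost none. Upstream bases numbered 1987 and 829 bp in DETA/NO cells, against 36 and 0 bp in untreated cells. Part of this was weak. In treated replicate 1 upstream peaks of 1248, 536 and 170 bp had authors' scores of 17.4, 0.52 and 1.8. Of that list 20.4%, 96.4% and 69.1% scored higher. The separate upstream peaks of treated replicate 2 had 6.96 and 3.97. A reproducible treated region, outscored by 75.4% of its set, lay from -1671 to -424, separated from the start by a gap of 370 bp that no library covered. Its edges are those of the peak in treated replicate 1, so how far the libraries fill it is fixed in part by how it was drawn, and no test of it is used as a result. In treated replicate 2 the stretch held 2 separate peaks, from -1584 to -1118 and from -766 to -458, and neither untreated library had a peak in it. The region was in the treated set alone, as were 45.1% of treated reproducible regions. For the same reason calls by limma over merged regions, whose edges come from these libraries, are read as no result about the genes. Over all 21917 merged regions 25% were called higher and 2.94% lower, and 0% and 2.91% after quantile normalization. Both treated libraries lay above both untreated in 85.9% of regions and below in 3.96%. RefSeq lists TECR, which encodes a fatty acid elongation enzyme, as a neighbour of DNAJB1.

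HSPH1, the nucleotide exchange factor on chromosome 13 (window 31731502 to 31741502, minus strand), had the least H3K9ac in untreated cells and the largest ratio. Peaks covered 4780 and 3571 bp in DETA/NO cells, against 1728 and 1041 bp in untreated cells. The means were 4175.5 bp ± 855 and 1384.5 bp ± 486 (SD, n = 2 each), a ratio of 3.02 (exact permutation p = 0.333). The ratio ran from 2.42 to 4.01 when single libraries were left out, the last without untreated replicate 1.

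The start of HSPH1 itself was nearly without called bases in untreated cells, although untreated replicate 1 had a weaker peak upstream, from -602 to -250. Of the 300 bp from 250 bp before to 50 bp after the start, peaks covered 300 and 203 bp in DETA/NO cells, against 1 and 0 bp in untreated cells. At HSPA1A those 300 bp held 119 and 300 bp in DETA/NO cells, against 54 and 54 bp in untreated cells. The conditions overlapped at HSPA1B, with 110 and 88 bp in DETA/NO cells, against 106 and 35 bp in untreated cells. They overlapped at DNAJB1 too, with 83 and 103 bp in DETA/NO cells, against 86 and 48 bp in untreated cells. This measure was not taken over the other windows. The untreated reproducible HSPH1 region lay inside the gene, from 448 to 1584, and the treated region ran from -1462 to 3093 across the start. It was 4556 bp wide in treated and 1137 bp in untreated cells, a ratio of 4.01, and 2.78% of the merged regions of both sets had a larger one. The median of all these regions was 1.64. The treated stretch was 1 peak in treated replicate 1 and 4 peaks in treated replicate 2.

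HSP90AB1, the constitutive Hsp90 on chromosome 6 (window 44209849 to 44219849, plus strand), had a difference in bases close to that of HSPH1. Peaks covered 6026 and 4493 bp in DETA/NO cells, against 2470 and 2223 bp in untreated cells. The means were 5259.5 bp ± 1084 and 2346.5 bp ± 175 (SD, n = 2 each), a difference of 2913 bp and a ratio of 2.24 (exact permutation p = 0.333). Which of both genes had the larger difference depended on the setting. HSPH1 had it with windows of 2 kb, at 1833.5 bp against 1189.5 bp for HSP90AB1, with the 20000 highest-scoring peaks, and without treated replicate 1 or untreated replicate 1. The widest HSP90AB1 peak was 4617 and 4155 bp in DETA/NO cells, against 1258 and 1352 bp in untreated cells.

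Around the start of HSP90AB1, separate peaks in untreated cells faced 1 long peak in each treated library. The untreated set had 3 regions, from -1473 to -894, from -673 to -164 and from 10 to 1361, and the treated set had 1, from -1637 to 3219. That treated region is pooled: near its downstream end treated replicate 1 had a gap from 2980 to 3091 and treated replicate 2 one from 2751 to 2862. The window held 4 and 2 peaks in treated libraries, against 4 and 3 in untreated ones. Of all treated regions 8.20% met at least 2 untreated regions and 0.806% met at least 3. In both untreated libraries the start lay in a gap of 173 bp without a called base, from -163 to 9, and both treated libraries covered all 300 bp around the start, against 121 and 109 bp in untreated cells. Most of the added length lay in the gene. Downstream bases numbered 4388 and 3088 bp in DETA/NO cells, against 1496 and 1352 bp in untreated cells. The trimeric heat shock elements printed above belong to a RefSeq start 842 bases downstream of the one shown for the window.

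Summed over the 5 genes, the difference was largest from 2000 to 2999 bp downstream of the start, and small just after the start. Gene ends were not placed on hg19, so this step need not lie inside every gene. That sum is led by HSPH1 and HSP90AB1 and does not describe each gene. In the first 1000 bp after the starts, summed over the 5, peaks covered 3530 and 3450 bp in DETA/NO cells, against 3238 and 2760 bp in untreated cells. There DNAJB1 and HSP90AB1 were nearly fully covered in every library and could hardly gain. HSPH1 had 1000 and 868 bp in DETA/NO cells, against 552 and 515 bp in untreated cells, and at HSPA1A and HSPA1B the conditions overlapped. In the step from 2000 to 2999 bp peaks covered 4288 and 3858 bp in DETA/NO cells, against 949 and 1239 bp in untreated cells. In the last 1000 bp before the start the values were 4289 and 3699 bp in DETA/NO cells, against 2231 and 1470 bp in untreated cells. HSPH1 had 1000 and 786 bp from 2000 to 2999 in DETA/NO cells, against 0 and 0 bp in untreated cells, and HSP90AB1 had 980 and 888 bp in DETA/NO cells, against 30 and 0 bp in untreated cells. Both genes were thus almost without called bases there in untreated cells. At DNAJB1 that step held 1000 and 1000 bp in DETA/NO cells, against 364 and 418 bp in untreated cells, and the step from -2000 to -1001 differed about as much, with 753 and 467 bp in DETA/NO cells, against 0 and 0 bp in untreated cells. HSPA1B was alike in that both steps differed by similar amounts. At HSPA1A the last 1000 bp before the start differed more, with 869 and 839 bp in DETA/NO cells, against 740 and 430 bp in untreated cells.

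**Figure D3:**
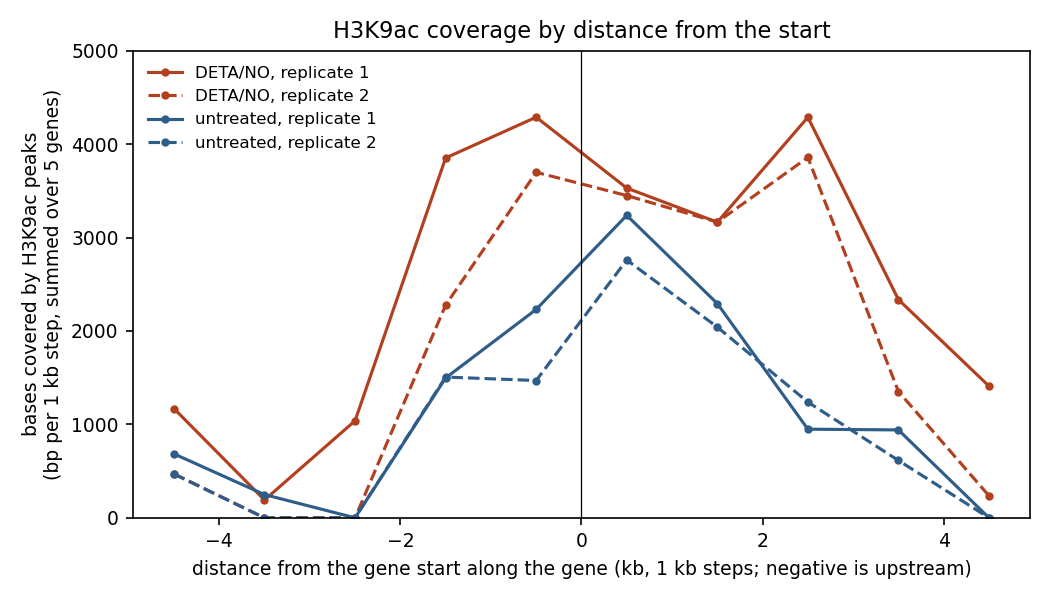
Bases covered by H3K9ac peaks per 1 kb step of distance from the start (x axis, kb along the gene, negative upstream), summed over the 5 genes (y axis, bp), as 1 line per library. Treated lines stand furthest above untreated ones from 2 to 3 kb downstream of the starts, at 4288 and 3858 bp against 949 and 1239 bp.

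By mean covered length the treated order was HSPA1B, HSP90AB1, DNAJB1, HSPH1 and HSPA1A. Among the first 4 of these, neighbours differed by less than their replicates did, and HSPA1A stood below both libraries of each of the other genes. The untreated order was HSPA1B, DNAJB1, HSP90AB1, HSPA1A and HSPH1. There HSPA1B stood above both libraries of each of the others, and neither DNAJB1 and HSP90AB1 nor HSPA1A and HSPH1 differed beyond their spread.

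Against the other windows, 4 of the 5 windows had large differences and HSPA1A did not. The covered share differed by 29.1 percentage points at HSP90AB1, 27.9 at HSPH1, 23.6 at DNAJB1, 20.2 at HSPA1B and 7.18 at HSPA1A, and the median over all 21106 windows was 7.72. A larger difference was found in 1.46% of the windows for HSP90AB1, 1.81% for HSPH1, 3.89% for DNAJB1, 6.80% for HSPA1B and 53.6% for HSPA1A. Grid bins can cut a region at their edge, whereas the 5 windows are centred on starts. Among 11380 windows centred on regions of both reproducible sets, a comparison added after seeing the data, these shares were 3.22%, 4.14%, 8.76%, 15.1% and 76.7% in the same order. In that set 86.1% of windows had each treated library above each untreated one, and 0.536% the reverse. By the ratio of means HSPA1B, DNAJB1 and HSP90AB1 stood nearer to the other windows, and HSPH1 did so clearly only among the bins. The median ratio of the 5 was 1.98, against 1.83 over the bins and 1.74 over the centred windows. The 1.83 is over the 19411 windows with untreated coverage. Leaving out those without it lowers this median. Among these 19411 a larger ratio was found in 75.0% for HSPA1A, 65.4% for HSPA1B, 43.0% for DNAJB1, 33.3% for HSP90AB1 and 19.4% for HSPH1. Among the centred windows these shares were 78.2%, 64.0%, 30.6%, 17.7% and 4.31% in the same order.

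None of the 5 windows passed the test across all windows. In limma, fitted to the arcsine square root of the covered share, the Benjamini-Hochberg adjusted p was 0.0707 for HSPH1, 0.0707 for HSP90AB1, 0.0715 for DNAJB1, 0.135 for HSPA1B and 0.225 for HSPA1A. The fit called 0 of 21106 windows higher and 0 lower, with 8483 at an unadjusted p under 0.05. The median arcsine difference over all windows was 0.138, and quantile normalization moved it to -0.0065. Relative to the median, HSPH1 stood 0.186 above it, HSP90AB1 0.169, DNAJB1 0.111 and HSPA1B 0.0686, and HSPA1A had -0.0455. After quantile normalization HSPH1 passed (arcsine difference 0.164, adjusted p = 0.0355), with 1.63% of windows called higher and 2.78% lower. HSP90AB1 and DNAJB1 did not pass there (adjusted p = 0.173 and 0.499), and HSPA1A and HSPA1B turned direction, at -0.0464 and -0.0173. Fitted with the centred windows, limma passed HSPH1, HSP90AB1 and DNAJB1 (adjusted p = 0.00137, 0.00981 and 0.0269) but not HSPA1B and HSPA1A (0.0828 and 0.225). There 33.6% of windows were called higher and 0.325% lower. After quantile normalization these shares were 0.738% and 0.457%, and HSPH1 did not pass (adjusted p = 0.0749).

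**Figure D4:**
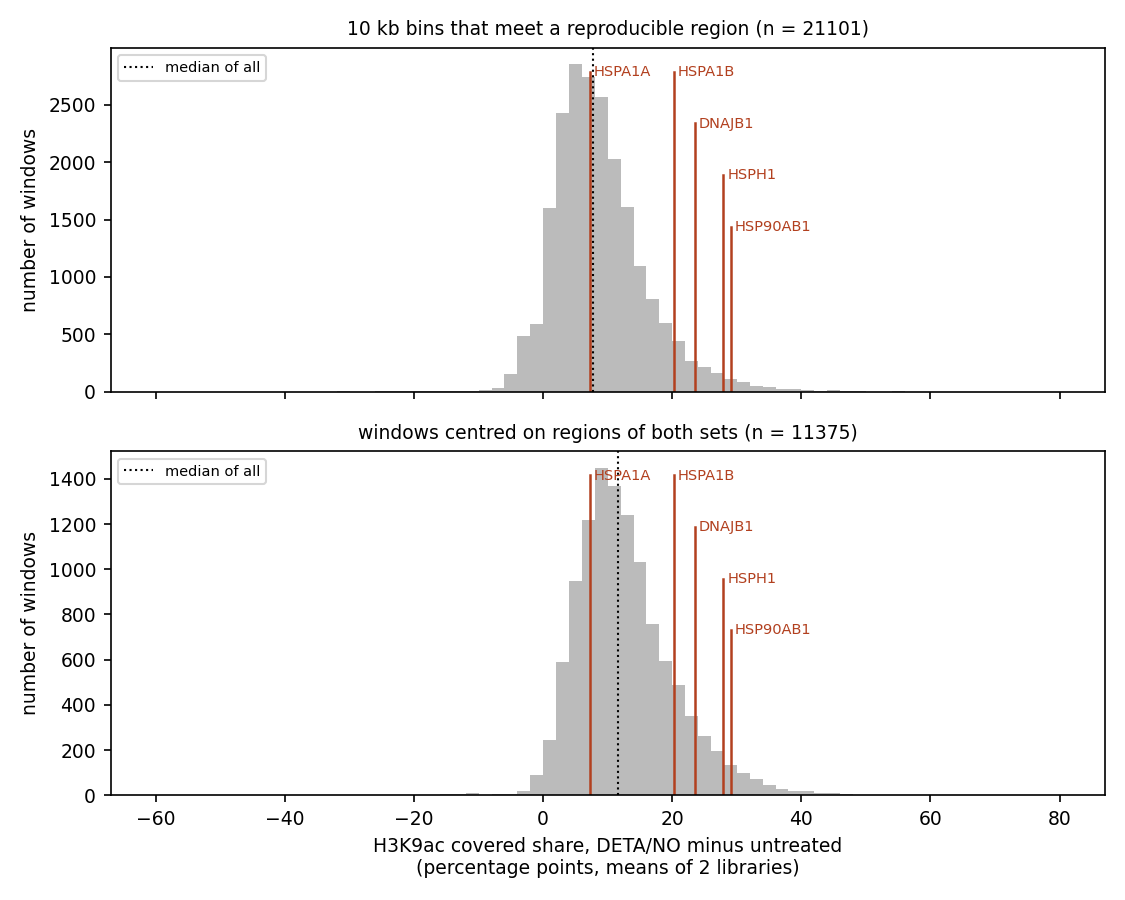
Difference in H3K9ac covered share, DETA/NO minus untreated (x axis, percentage points, means of 2 libraries), over all other windows (grey, y axis number of windows), for 10 kb bins above and for windows centred on regions of both sets below. Lines mark the 5 gene windows and dots the median, and HSPA1A lies at 7.18 and the other 4 genes between 20.2 and 29.1.

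H3K9me2 was not called at any of the 5 starts. Its islands covered 0% of every window in all 4 libraries, treated and untreated, and 0% also within 50 kb of the starts. Among the 21106 windows, 2.98% met an island in at least 1 library, so 0 of 5 is near the background. Neither the share within 50 kb nor the distances below were computed for the other windows, so they show nothing particular to these genes. The nearest island to HSPA1A lay 455.7 and 481.7 kb away in DETA/NO cells, against 440.7 and 1180.2 kb in untreated cells. For HSP90AB1 the distances were 522.7 and 772.2 kb in DETA/NO cells, against 513.2 and 644.2 kb in untreated cells. DNAJB1 was 1215.8 and 5418.8 kb from an island in DETA/NO cells, against 1230.8 and 1232.8 kb in untreated cells. Chromosome 13, which holds HSPH1, had 0 islands in any library, so no comparison of the marks can be made there. A lack of called islands does not show that the mark is absent.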

How the data were processed

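Intervals called from H3K9ac and H3K9me2 chromatin immunoprecipitation in MDA-MB-231 cells were used for 8 libraries. Per the submitters' processing notes, the build was hg19 and the tools were SICER, MACS2, Picard, BWA 0.7.5 and Trimmomatic 0.32. Their settings, any use of inputs and the sequencing depth: not given in the sources used here. Each deposited interval has a score from the authors, whose scale is unstated. The deposited reproducible H3K9ac sets give a −log10 value per region, taken for a reproducibility rate because its minimum equals that of 0.05. Other deposited columns are interval starts and ends, and H3K9me2 ends were lengthened by 1 bp, being inclusive.

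Bases covered by peaks were counted per window in Python 3.11.15. Conditions were compared by exact permutation and by limma 3.58.1 (R 4.3.3, variance trend, Benjamini-Hochberg adjustment, threshold 0.05) on arcsine square roots of covered shares. Autosomes and X were used. Reproducible regions sharing at least 1 bp were merged. Alternatives were other window sizes, peak numbers and scalings, replicate blocks and leaving out libraries. Code was tested on simulated data. All 5 genes are named with values in every library; other chaperone genes are not analysed here, having no hg19 position in the tables used. Members, lists and motifs were chosen with earlier results of these data known. The labels name biological replicates, and p-values measure only the spread between these libraries.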

Additional observations from a re-analysis of the deposited data

How the results depend on the processing

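Every treated library lay above every untreated one in 5 of 5 windows with the other window sizes and peak numbers tried. Leaving out a library cannot undo that order, so those alternatives are no check of it. The share of all windows with this order was not computed under the alternatives. The summed difference in H3K9ac length, 10797 bp with windows of 5 kb, was 5196 bp with 2 kb and 17051 bp with 10 kb either side. With 10 kb the HSPA1A and HSPA1B windows overlap, so they are not separate and shared bases entered that sum under both genes. With windows of 5 kb the summed difference ran from 7416.5 to 14177.5 bp when single libraries were left out. The pairs of same-numbered libraries differed by 13186 and 8408 bp. No label ties a number to a shared batch, and the replicate deviations correlated at -0.052 over bins and -0.107 over regions, so a crossed pairing was added.

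The number of windows that limma called depended strongly on the setting, and the cause was not tested. It was 0 higher and 0 lower as reported, and 10882 and 388 with the replicate block, 673 and 11 with the crossed block, 343 and 586 after quantile normalization, 3730 and 18 in bins that meet regions of both conditions, and 3255 and 66 with equal numbers of top peaks. Windows centred on shared regions gave 3824 and 37, and 84 and 52 after quantile normalization. Without single libraries, each fit leaving 1 library in its condition whose spread is assumed equal, the calls were 0 to 1727 higher and 0 to 70 lower. With the replicate block 4 of the 5 windows passed and HSPA1A did not (adjusted p = 0.0722); with the crossed block only HSPH1 passed (0.0485), and HSP90AB1 (0.113), DNAJB1 (0.17), HSPA1B (0.332) and HSPA1A (0.5) did not. Among the 5 windows, 15 of 55 alternative fits gained a call. The calls over all windows given above, such as 10882 of 21106 higher with the replicate block, are the background for this count. HSPA1A and HSPA1B reversed after quantile normalization, at -0.0464 and -0.0173 in bins and -0.0481 and -0.0274 in centred windows.

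For merged regions, 5474 were called higher and 644 lower. With the replicate block it was 16280 higher, with the crossed block 3199, and after quantile normalization 0. Among regions of both conditions it was 0 higher and 0 lower, with 6200 at an unadjusted p under 0.05. Without single libraries 309 to 3228 were called higher and 18 to 779 lower. In the member regions, quantile normalization reversed DNAJB1 at its start (-0.0848), HSPA1A upstream (-0.339) and HSPA1B far upstream, upstream and downstream (-0.353, -0.0817 and -0.117). The HSPA1B region at the start, -0.174 as reported, reversed without untreated replicate 1 (0.198), and was -0.545 without untreated replicate 2. H3K9me2 stayed at 0 in all 7 alternatives tried. As reported, limma called 1 of the 10 member regions, the DNAJB1 upstream one, whose edges are a treated peak (adjusted p = 0.00349). It was not called after quantile normalization (0.809) or without untreated replicate 1 or 2 (0.214 and 0.411), and is no region of both conditions. Joined to the start region at 1 kb it was not called (0.146). The replicate block called 6 further member regions and joining at 1 kb called 3. Over all regions those settings called 16280 of 21917 and 5730 of 18631 higher. The member calls are therefore read as no result about the genes.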
